A study of Homo sapiens with 30 samples.

Results

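The transcripts of 7 stress-response genes, SESN1, SESN2, SESN3, DDIT4, TIGAR, PANK1 and TRIAP1, were followed on 30 single-colour Illumina bead arrays of U2OS cells, a human osteosarcoma line with functional p53. They were chosen by gene symbol (TIGAR also by its older symbol C12orf5) and were read by 9 of the 48802 probes, 3 of them for PANK1 and 1 for each other gene. All 9 probes were detected on all 30 arrays, and all 7 genes were among the 12419 tested in the first experiment and the 11040 tested in the second. In the first experiment, cells carried retroviral short hairpin RNAs (shRNAs) from the pSIREN vector: a negative control, NFBD1 shRNA b, a p53 shRNA, or NFBD1 shRNA b with the p53 shRNA. Each of these was mock irradiated (0 Gy) or given 5 Gy of ionizing radiation 2 days after infection, and RNA was taken 4 h later, which gave 8 groups of 3 arrays. The second experiment compared another hairpin, NFBD1a, with its own negative control, both at 0 Gy, with 3 arrays each. NFBD1 is the protein of the MDC1 gene, an adaptor that gathers repair and checkpoint proteins at broken DNA, and the study asked which expression changes depend on NFBD1, on radiation and on p53. The p53 shRNA was 1 hairpin, every group carried a viral vector, and nothing in the labels says that replicates were separate cultures, so p-values measure the spread between these arrays, which may be technical.

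Between 34.1% and 40.3% of the probes were detected on an array, and the number of arrays limits the precision. The beads behind a member's signal on an array numbered 20 to 62. Of 8 mesenchymal and osteosarcoma markers, 6 were detected on all arrays (VIM, CDH2, SPARC, RUNX2, ALPL and BGLAP), FN1 was detected on 9 arrays and COL1A2 on none. Of the epithelial markers, EPCAM was detected on all 30 arrays, CDH1 on 28, and KRT19 and ESRP1 on none; of the blood markers, PTPRC and CD3E were detected on none and HBB on 12. MDC1 was lower with hairpin b in each of its 4 comparisons (log2 changes from -1.84 to -1.17, limma adjusted p from 0.000137 to 0.0185) and with NFBD1a (-2.41, adjusted p = 6.43e-07). CDKN1A, the p21 cell-cycle inhibitor and a standard p53 target, rose after 5 Gy with the control shRNA by 1.72 on the log2 scale (adjusted p = 8.4e-06) and was 1.74 lower with the p53 shRNA at 5 Gy on that scale (log2 change -1.74, adjusted p = 2.39e-05). With the p53 shRNA CDKN1A still rose after 5 Gy, by 0.90, 1.59 and 1.24 within chips. Its mean went from 10.43 to 11.67 there, and from 10.67 to 11.70 with both shRNAs. Below, cells with the p53 shRNA are called p53-depleted, and cells without it are said to keep p53. How much p53 was left was not analysed here.

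Sestrins are stress-induced proteins that restrain the growth kinase complex mTORC1. SESN1 and SESN2 are known p53 targets, SESN2 is also induced through ATF4 and NRF2, and SESN3 is known as a FOXO target. DDIT4 (REDD1) restrains mTORC1 through the TSC complex and is induced by hypoxia, glucocorticoids, energy stress and DNA damage. TIGAR lowers fructose-2,6-bisphosphate and so directs glucose toward the pentose phosphate pathway. PANK1 is a pantothenate kinase, which makes the first committed step of coenzyme A synthesis, and TRIAP1 (p53CSV) is a small p53-induced survival protein that works with PRELI proteins in mitochondrial lipid transfer.

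The promoter windows below run from 250 bases before to 50 bases after an annotated gene start and come from RefSeq (GRCh38.p14); all 7 genes matched, with 10 windows. They are shown for the 4 genes that moved together after irradiation (SESN1, SESN2, TIGAR and TRIAP1), for PANK1 because of its p53 half-site match, and for DDIT4 because of its hypoxia-type motif. Capitals mark matches on either strand to the p53 half-site, a decamer that is only part of a full p53 response element. They also mark ACGTG (the core of the hypoxia response element), TGATGNAA (an ATF4 composite site), TGACGTCA (a CREB/ATF site) and GTAAACA (a forkhead site).
SESN1, chr6:109008939-109009238, minus strand: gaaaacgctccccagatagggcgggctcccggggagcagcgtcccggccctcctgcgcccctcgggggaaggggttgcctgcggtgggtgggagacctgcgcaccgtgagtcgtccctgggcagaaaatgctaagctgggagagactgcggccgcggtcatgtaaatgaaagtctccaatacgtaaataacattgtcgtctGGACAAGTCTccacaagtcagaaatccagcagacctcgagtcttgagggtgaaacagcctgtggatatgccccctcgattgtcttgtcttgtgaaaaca
SESN2, chr1:28259268-28259567, plus strand: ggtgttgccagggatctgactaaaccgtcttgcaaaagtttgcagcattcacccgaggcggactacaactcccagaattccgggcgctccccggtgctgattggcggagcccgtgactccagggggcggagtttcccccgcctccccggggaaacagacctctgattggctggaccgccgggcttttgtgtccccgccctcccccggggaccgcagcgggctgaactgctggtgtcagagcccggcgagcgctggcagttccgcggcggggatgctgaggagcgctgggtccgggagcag
TIGAR, chr12:4320963-4321262, plus strand: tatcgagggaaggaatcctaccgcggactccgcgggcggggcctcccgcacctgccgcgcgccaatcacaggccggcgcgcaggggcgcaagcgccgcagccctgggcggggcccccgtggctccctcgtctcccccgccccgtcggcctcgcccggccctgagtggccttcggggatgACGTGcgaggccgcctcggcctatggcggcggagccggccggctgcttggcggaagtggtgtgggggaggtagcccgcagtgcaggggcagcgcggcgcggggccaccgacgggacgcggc
TRIAP1, chr12:120446335-120446634, minus strand: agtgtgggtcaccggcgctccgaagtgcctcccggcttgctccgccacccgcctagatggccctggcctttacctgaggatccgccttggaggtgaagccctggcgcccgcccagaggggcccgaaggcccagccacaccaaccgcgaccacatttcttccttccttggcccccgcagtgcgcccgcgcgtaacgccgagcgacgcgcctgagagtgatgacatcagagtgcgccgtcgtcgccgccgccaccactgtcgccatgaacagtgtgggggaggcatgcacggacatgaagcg
PANK1, chr10:89645193-89645492, minus strand: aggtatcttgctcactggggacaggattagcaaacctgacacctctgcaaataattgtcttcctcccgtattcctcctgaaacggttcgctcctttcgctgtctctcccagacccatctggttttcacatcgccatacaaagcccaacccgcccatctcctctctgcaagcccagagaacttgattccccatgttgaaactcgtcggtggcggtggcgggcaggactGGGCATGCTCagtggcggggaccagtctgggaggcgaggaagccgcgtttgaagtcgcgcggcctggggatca
DDIT4, chr10:72273674-72273973, plus strand: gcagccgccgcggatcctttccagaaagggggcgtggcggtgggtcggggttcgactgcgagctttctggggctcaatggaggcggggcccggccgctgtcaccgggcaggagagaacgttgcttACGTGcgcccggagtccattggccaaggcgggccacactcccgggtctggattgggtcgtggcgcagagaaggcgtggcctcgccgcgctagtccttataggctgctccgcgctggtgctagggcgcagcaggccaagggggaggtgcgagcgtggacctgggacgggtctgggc

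The SESN1 window, the first of its 3, held the p53 half-site GGACAAGTCT starting at position -49 relative to the gene start, and the PANK1 window, the second of its 2, held the half-site GGGCATGCTC starting at position -23. A p53 half-site was present in 6.63% of the 35116 RefSeq promoter windows of this length. ACGTG was found in the TIGAR window (position -71) and in the DDIT4 window (position -125), and in 21.4% of all windows. The other motifs, TGATGNAA (3.62% of all windows), TGACGTCA (1.85%) and GTAAACA (3.42%), were not in the members' 10 windows. The SESN2 and TRIAP1 windows hold none of the marked letters, which says nothing of sites outside them.

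SESN1 had the clearest pattern by treatment, with irradiated cells that kept p53 standing apart from all others. With the control shRNA its log2 intensity was 7.61, 7.31 and 7.63 at 0 Gy and 8.83, 8.85 and 8.86 at 5 Gy. With NFBD1 shRNA b it was 7.75, 7.56 and 7.60 at 0 Gy and 8.88, 8.73 and 8.84 at 5 Gy. The 2 irradiated groups overlapped each other and lay above every other array of the experiment. With the p53 shRNA SESN1 was at 6.83, 6.64 and 6.87 at 0 Gy and at 7.48, 7.60 and 7.43 at 5 Gy. With both shRNAs it was at 6.85, 6.95 and 7.00, then at 7.42, 7.45 and 7.32. The means of irradiated p53-depleted cells lay near that of unirradiated control cells, which was 7.51 ± 0.18 (SD, n = 3) against 7.50 ± 0.09 with the p53 shRNA at 5 Gy and 7.40 ± 0.07 with both shRNAs.

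SESN1 rose 2.52-fold after 5 Gy with the control shRNA (log2 change 1.33, SE 0.106, adjusted p = 2.99e-07), 1.23 to 1.55 within the 3 chips that hold both doses. It was 1 of 4 members called risen there, with SESN2, TIGAR and TRIAP1, against 0.209% of all genes. With NFBD1 shRNA b it rose 2.27-fold (adjusted p = 1.23e-06), again 1 of the same 4 members called, against 0.234% of all genes. With the p53 shRNA SESN1 still rose 1.65-fold (log2 change 0.72, adjusted p = 0.0012) and was the only member called, against 0.0242% of all genes. With both shRNAs its log2 change was 0.46 (SE 0.106, 95% interval 0.24 to 0.68, adjusted p = 0.112) and no member was called, while 0.00805% of all genes rose and 373 genes had an unadjusted p under 0.05. With the chip as a block that SESN1 change passed the test (adjusted p = 0.0367).

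Unirradiated cells with the p53 shRNA had 1.66-fold less SESN1 than control cells (log2 change -0.73, adjusted p = 0.00134). SESN1 was the only member called lower there, against 0.322% of all genes. In cells with NFBD1 shRNA b at 0 Gy, adding the p53 shRNA gave 1.63-fold less SESN1 (log2 change -0.70, adjusted p = 0.00242), again the only member called, against 0.153% of all genes. At 5 Gy the p53 shRNA lowered SESN1 2.55-fold (adjusted p = 2.47e-07), and in cells with NFBD1 shRNA b 2.68-fold (adjusted p = 9.13e-08). With the authors' processed values the changes of SESN1 after irradiation with the p53 shRNA (0.36) and with the p53 shRNA at 0 Gy (-0.37 in both settings) were smaller, and all 3 were called. The irradiation comparisons and the shRNA comparisons share arrays, so these values are not independent of those above. Hairpin b alone gave no SESN1 call, with log2 changes of 0.12 at 0 Gy (95% interval -0.10 to 0.34) and -0.03 at 5 Gy (-0.25 to 0.19).

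SESN2 rose after irradiation in cells without the p53 shRNA. Its log2 intensity with the control shRNA was 5.85, 5.76 and 5.62 at 0 Gy and 6.90, 6.57 and 6.47 at 5 Gy. With NFBD1 shRNA b it was 6.13, 5.72 and 5.87 at 0 Gy and 7.29, 6.70 and 6.94 at 5 Gy, so dose separated the arrays in both settings. The rise was 1.87-fold with the control shRNA (log2 change 0.90, SE 0.163, adjusted p = 0.00575) and 2.10-fold with hairpin b (1.07, adjusted p = 0.00059). With the authors' processed values the log2 changes were smaller, 0.31 (adjusted p = 0.0159) and 0.41 (adjusted p = 0.000836). Without the first irradiated control array the control value was 0.78 with an adjusted p of 0.0517. With the p53 shRNA the arrays overlapped, at 5.59, 5.37 and 5.14 against 5.46, 5.47 and 5.61, and the log2 change was 0.15 (95% interval -0.19 to 0.48). With both shRNAs SESN2 was at 5.97, 6.06 and 5.87 at 0 Gy and at 5.98, 5.92 and 6.38 at 5 Gy, a log2 change of 0.13 (-0.21 to 0.46).

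The p53 shRNA at 5 Gy lowered SESN2 2.20-fold (log2 change -1.14, adjusted p = 0.00062; -0.36 with the authors' processed values, adjusted p = 0.00336). Called lower there were 4 members, SESN1, SESN2, TIGAR and TRIAP1, against 0.604% of all genes. In irradiated cells with NFBD1 shRNA b, 5 members were called lower with the p53 shRNA, the same 4 and PANK1, against 0.362% of all genes. SESN2 fell there by 0.88 on the log2 scale (adjusted p = 0.00916), and by the authors' processed values its log2 change was -0.35. Its adjusted p was 0.0796 without hairpin b replicate 1, 0.0756 without double-shRNA replicate 1 and 0.0861 without double-shRNA replicate 2. At 0 Gy SESN2 was not called with the p53 shRNA, with log2 changes of -0.38 (95% interval -0.72 to -0.04) and, in cells with hairpin b, 0.06 (-0.28 to 0.40).

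Among p53-depleted cells SESN2 was higher with hairpin b on all 3 arrays than on the arrays without it, at both doses. The log2 differences were 0.60 at 0 Gy and 0.58 at 5 Gy, and neither was called (adjusted p = 0.148 and 0.132). With the replicate number as a block both passed the test, with adjusted p of 0.0467 and 0.0435. In cells that kept p53 the differences were 0.16 and 0.33 and were not called. Averaged over its 4 comparisons, a summary chosen after values had been seen, hairpin b raised SESN2 1.33-fold (log2 change 0.42, SE 0.0813, adjusted p = 0.00213). That value was 0.13 with the authors' processed values and 0.27 without background correction, both called. SESN2 was the 1 member that rose in that average, against 1.8% of all genes. With the replicate number as a block DDIT4 was called higher there too (adjusted p = 0.0192).

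**Figure D1:**
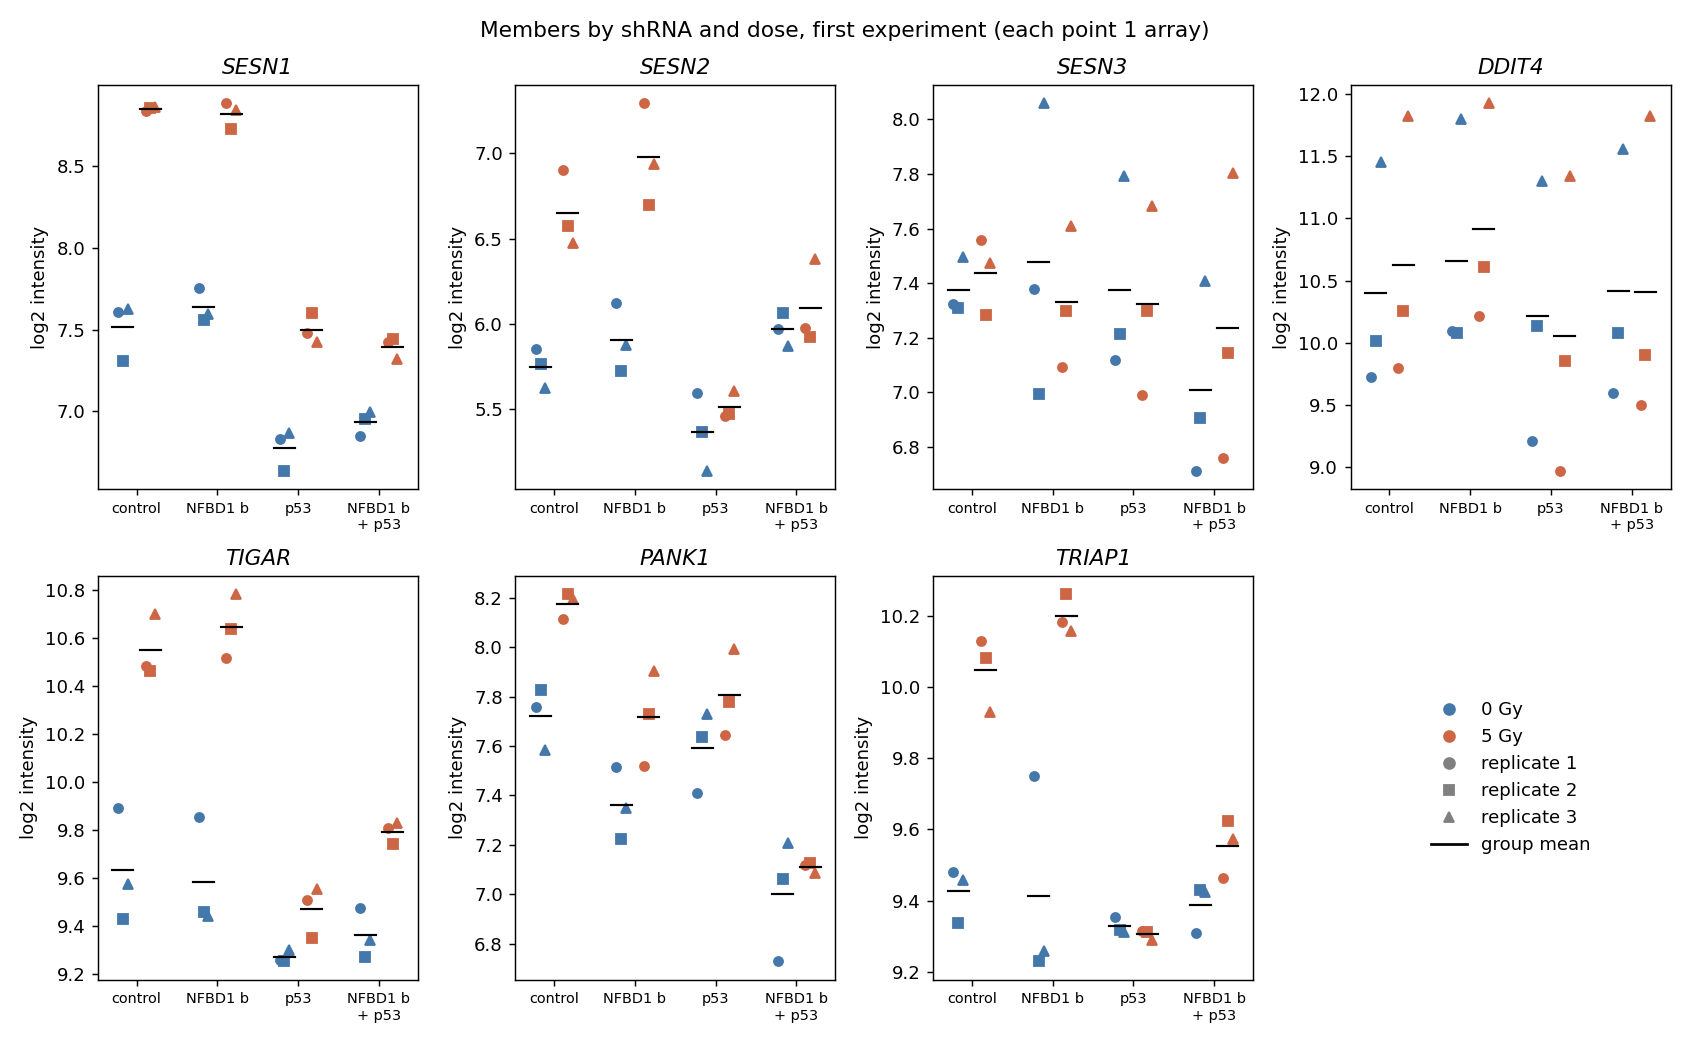
Log2 intensity of each member on the 24 arrays of the first experiment, by shRNA (x axis) and dose (colour); point shapes give the replicate number and bars the group means. SESN1 at 5 Gy without the p53 shRNA lies at 8.73 to 8.88, above all other arrays, while DDIT4 follows the replicate number, with replicate 3 at 11.30 to 11.92.

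SESN3 gave no call in the first experiment. Its group means lay between 7.01 ± 0.36 (SD, n = 3), with both shRNAs at 0 Gy, and 7.48 ± 0.54, with hairpin b at 0 Gy, and no step in that order exceeded the pooled SD of 0.362. With the control shRNA it was at 7.32, 7.31 and 7.50 at 0 Gy and at 7.56, 7.28 and 7.48 at 5 Gy. The irradiation changes ran from -0.14 with hairpin b to 0.23 with both shRNAs, with 95% intervals that reached from -0.70 to 0.78. Much of the spread was shared by arrays of a chip or number: chip accounted for 78.3% of the within-group variance of SESN3 and replicate number for 68.8%, against medians of 35.2% and 29.1% over all genes. Chip and replicate number overlap in this layout, and their parts cannot be told apart fully.

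TIGAR was higher after 5 Gy in cells without the p53 shRNA. With the control shRNA its log2 intensity was 9.89, 9.43 and 9.57 at 0 Gy and 10.48, 10.46 and 10.70 at 5 Gy. With NFBD1 shRNA b it was 9.85, 9.46 and 9.44, then 10.51, 10.64 and 10.78, again with no overlap between doses. With the p53 shRNA it was 9.26, 9.25 and 9.30 at 0 Gy and 9.51, 9.35 and 9.55 at 5 Gy. With both shRNAs it was 9.48, 9.27 and 9.34, then 9.81, 9.74 and 9.83. In these p53-depleted cells the irradiated arrays also lay above the unirradiated ones, by less. The rise was 1.89-fold with the control shRNA (log2 change 0.92, SE 0.129, adjusted p = 0.000419) and 2.08-fold with hairpin b (1.06, adjusted p = 4.79e-05). The p53-depleted changes were 0.20 (95% interval -0.07 to 0.47, adjusted p = 1) and 0.43 (0.16 to 0.70, adjusted p = 0.512) and were not called.

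The p53 shRNA lowered TIGAR at 5 Gy 2.11-fold (log2 change -1.08, adjusted p = 9.58e-05), and 1.80-fold in cells with hairpin b (-0.85, adjusted p = 0.00184). At 0 Gy the p53 shRNA changes were -0.36 (95% interval -0.63 to -0.09, adjusted p = 0.703) and -0.22 (-0.49 to 0.05), and neither was called. Hairpin b gave TIGAR log2 changes between -0.05 and 0.32 in its 4 comparisons, none called.

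TRIAP1 also rose after irradiation in the cells without the p53 shRNA. With the control shRNA its log2 intensity was 9.48, 9.34 and 9.46 at 0 Gy and 10.13, 10.08 and 9.93 at 5 Gy. With NFBD1 shRNA b it was 9.75, 9.23 and 9.26, then 10.18, 10.26 and 10.16. With the p53 shRNA the doses overlapped, at 9.36, 9.32 and 9.31 against 9.32, 9.31 and 9.29. With both shRNAs TRIAP1 was at 9.31, 9.43 and 9.42, then at 9.46, 9.62 and 9.57. The rises were 1.54-fold (log2 change 0.62, SE 0.116, adjusted p = 0.00676) and 1.73-fold (0.79, adjusted p = 0.000416), against log2 changes of -0.02 (95% interval -0.26 to 0.22) and 0.17 (-0.07 to 0.41) in p53-depleted cells. In control cells the adjusted p was 0.0517 without irradiated replicate 1 and 0.0717 without unirradiated replicate 2. At 5 Gy the p53 shRNA lowered TRIAP1 1.67-fold (adjusted p = 0.00133) and, with hairpin b, 1.56-fold (adjusted p = 0.0086). The latter adjusted p was 0.0583 without double-shRNA replicate 1 and 0.058 without hairpin b replicate 2. At 0 Gy the p53 shRNA changes of TRIAP1 were -0.10 and -0.03.

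**Figure D2:**
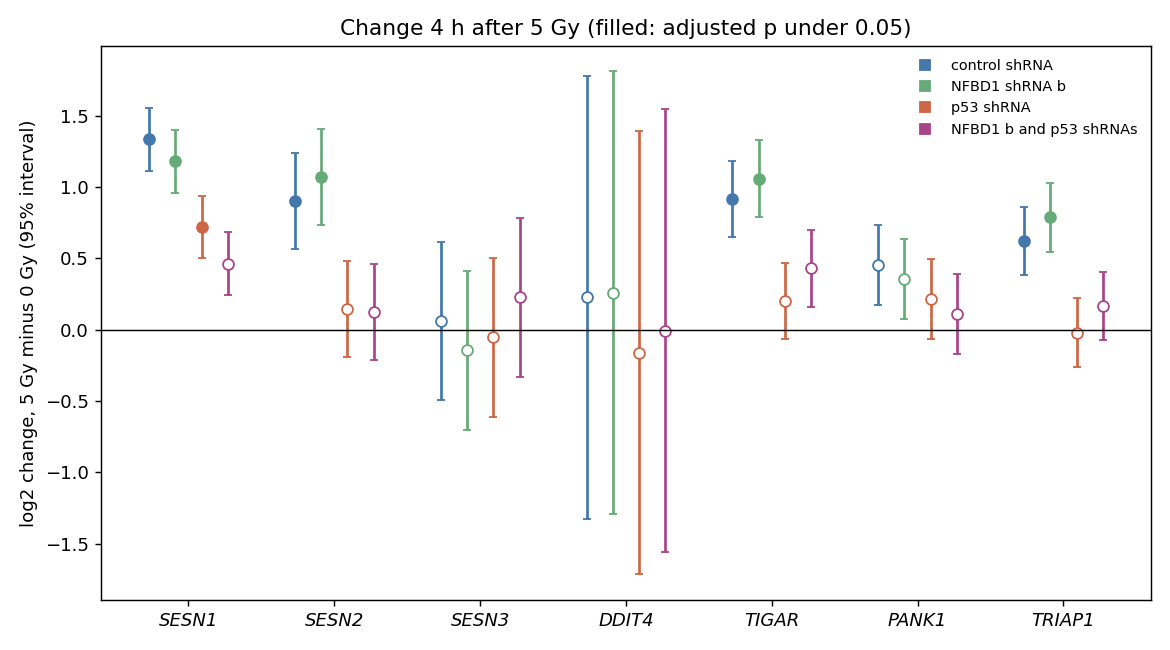
Log2 change from 0 to 5 Gy (y axis) of each member with the 4 shRNA settings, with 95% intervals from limma; filled points have an adjusted p under 0.05. SESN1, SESN2, TIGAR and TRIAP1 are filled in both settings without the p53 shRNA, and SESN1 (0.72) also with the p53 shRNA, while DDIT4 has intervals that reach from -1.72 to 1.81. The fit behind the intervals does not take the replicate number into account.

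Whether the irradiation change itself differed with the p53 shRNA was tested as an interaction. Averaged over cells with and without hairpin b, the SESN1 change was smaller by 0.67 on the log2 scale (interaction -0.67, SE 0.106, 95% interval -0.89 to -0.45, adjusted p = 0.018). SESN1 was the 1 member called, against 0.0161% of all genes; the other gene called was PPM1D, a p53-induced phosphatase that shuts off damage signalling (-0.81, adjusted p = 0.013), named after its value was seen. The interactions of SESN2 (-0.85, adjusted p = 0.0893), TIGAR (-0.67, adjusted p = 0.0893) and TRIAP1 (-0.63, adjusted p = 0.0816) had intervals below 0 and missed the threshold. With the replicate number as a block all 3 passed it, with adjusted p from 0.0234 to 0.0239. The SESN1 call was lost, with adjusted p from 0.0529 to 0.0624, when any of 9 single arrays was left out, namely replicates 2 and 3 of hairpin b at 0 Gy and of the double shRNA at 0 Gy, replicate 2 of the control at 5 Gy, and replicates 1 and 3 of the p53 shRNA at both doses.

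With the single shRNAs alone the p53 interaction was called for 0% of genes, and 210 genes had an unadjusted p under 0.05. The member values there were -0.61 for SESN1, -0.76 for SESN2, -0.71 for TIGAR and -0.64 for TRIAP1. With the authors' processed values SESN1 was called there (-0.55, adjusted p = 0.00291). The interaction of irradiation with hairpin b was called for 0% of genes, both with the single shRNAs (385 genes at an unadjusted p under 0.05) and averaged over p53 status (702 genes). Its averaged member values ran from -0.21 for SESN1 (95% interval -0.43 to 0.01) to 0.19 for TIGAR (-0.08 to 0.45).

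PANK1 was the member that fell with hairpin b. On its brightest probe, the log2 intensity at 0 Gy was 7.76, 7.83 and 7.58 with the control shRNA and 7.51, 7.22 and 7.35 with NFBD1 shRNA b. At 5 Gy it was 8.12, 8.21 and 8.19 with the control shRNA and 7.52, 7.73 and 7.90 with hairpin b. With the p53 shRNA it was 7.41, 7.63 and 7.73 at 0 Gy and 7.64, 7.78 and 7.99 at 5 Gy. With both shRNAs it was lowest, at 6.73, 7.06 and 7.21 and at 7.12, 7.13 and 7.08. Arrays with and without hairpin b did not overlap in any of these 4 settings.

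Among irradiated p53-depleted cells hairpin b lowered PANK1 1.62-fold (log2 change -0.69, SE 0.135, adjusted p = 0.0113). PANK1 was the 1 member called lower there, against 0.652% of all genes. In the same cells at 0 Gy the change was -0.59 (adjusted p = 0.0502; 0.0144 with the replicate number as a block), and no member was called, against 0.459% of all genes called lower and 851 genes with an unadjusted p under 0.05. In cells that kept p53 no member was called with hairpin b, at 0 Gy (0.403% of all genes called lower, 734 genes at an unadjusted p under 0.05) or at 5 Gy (1.09% called lower, 1223 genes at an unadjusted p under 0.05). The PANK1 changes there were -0.36 (95% interval -0.64 to -0.08) and -0.46 (-0.74 to -0.18), and the one at 5 Gy was called with the chip as a block (-0.50, adjusted p = 0.0348) and with the authors' processed values (-0.29, adjusted p = 0.0436). Averaged over the 4 comparisons, PANK1 fell 1.44-fold (log2 change -0.53, SE 0.0677, adjusted p = 1.61e-05), as the 1 member called lower, against 3.87% of all genes. That average was chosen after values had been seen, so its adjusted p is not separate support. With the authors' processed values the averaged change was -0.30 and that in irradiated p53-depleted cells -0.39, both called. The call at 5 Gy was lost without replicate 3 of either group (adjusted p = 0.0577 without the double-shRNA array and 0.0976 without the p53 shRNA array).

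The 3 PANK1 probes did not move alike. The second probe of the same transcript entry had an averaged hairpin b change of -0.40 (SE 0.0802, adjusted p = 0.00289). The third probe, on another transcript entry, had 0.07 (SE 0.0788, adjusted p = 0.739) and lay at 6.07 to 6.13 in unirradiated controls against 6.12 to 6.27 with hairpin b. With the mean of the 3 probes the change in irradiated p53-depleted cells was -0.32 (adjusted p = 0.26), and the averaged change was -0.29 (adjusted p = 0.00129). A lower level of some transcripts and a probe-specific difference cannot be told apart here.

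**Figure D3:**
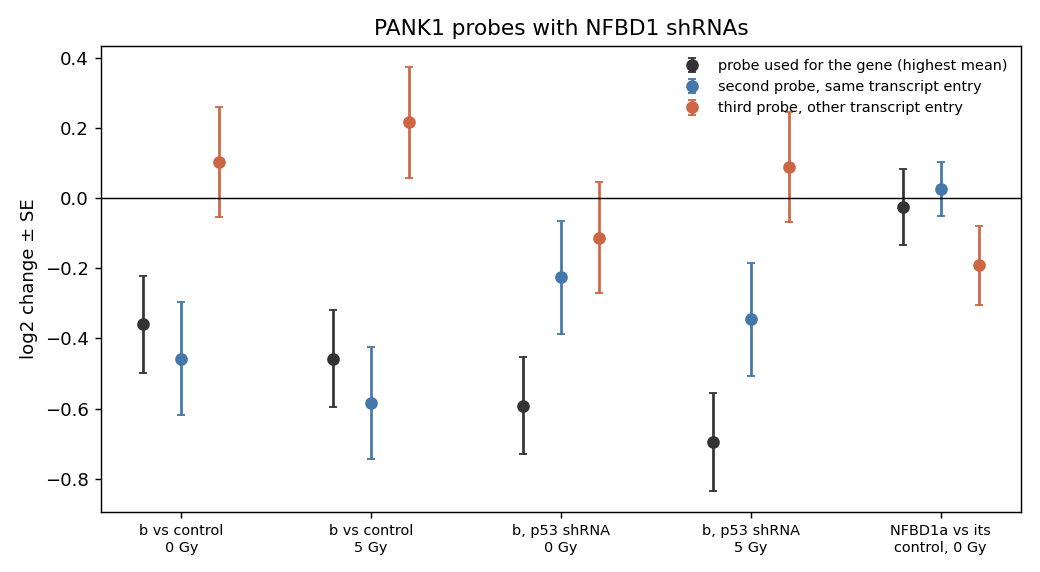
Log2 change (y axis, ± SE) of each PANK1 probe with hairpin b in its 4 comparisons and with NFBD1a. Both probes of 1 transcript entry lie below 0 in all 4 hairpin b comparisons, between -0.69 and -0.23, and the probe of the other entry lies between -0.11 and 0.22.

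Irradiation gave PANK1 log2 changes of 0.45 with the control shRNA (95% interval 0.17 to 0.73, adjusted p = 0.321), 0.36 with hairpin b, 0.21 with the p53 shRNA and 0.11 with both, none called. In irradiated cells with hairpin b the p53 shRNA lowered it 1.52-fold (log2 change -0.61, adjusted p = 0.0494). That call was lost without any of 5 single arrays, hairpin b replicates 2 and 3 and each double-shRNA array, with adjusted p from 0.133 to 0.171, and with the mean of the 3 probes (-0.34, adjusted p = 0.275). With the authors' processed values it was -0.33 (adjusted p = 0.0341).

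DDIT4 differed more between replicate numbers than between treatments. Over the 8 groups its log2 intensity was 8.97 to 10.21 in replicate 1 (median 9.66), 9.85 to 10.61 in replicate 2 (median 10.1) and 11.30 to 11.92 in replicate 3 (median 11.68). The replicate 3 arrays all lay above the others. With the control shRNA the values were 9.72, 10.02 and 11.45 at 0 Gy and 9.80, 10.25 and 11.82 at 5 Gy. Replicate number accounted for 97.1% of the within-group variance of DDIT4, which ranked 7 of the 12419 genes, and for 29.1% in the median gene.

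This spread left wide intervals, because the fit did not take the replicate number into account. The irradiation changes of DDIT4 were 0.23 with the control shRNA (95% interval -1.33 to 1.78), 0.26 with hairpin b, -0.16 with the p53 shRNA and -0.01 with both. Between arrays of the same number and chip they spread less. They were 0.08, 0.24 and 0.37 with the control shRNA and 0.12, 0.53 and 0.13 with hairpin b. With the p53 shRNA they were -0.24, -0.29 and 0.04, and with both -0.10, -0.18 and 0.26. No irradiation change of DDIT4 was called with the replicate number as a block. At 5 Gy the p53 shRNA change was -0.57 (-2.12 to 0.98), and it was -0.83, -0.40 and -0.48 between arrays of number 1, 2 and 3. With the chip as a block that change was -1.22 (adjusted p = 0.0145), and within the 2 chips that hold both groups it was -0.83 and -1.97; the chip that gave -1.97 holds control replicate 3 and p53 shRNA replicate 2. With the replicate number as a block the adjusted p was 0.0562. Averaged over its 4 comparisons hairpin b gave DDIT4 a change of 0.28 (adjusted p = 0.781; 0.0192 with the replicate number as a block), with 0.43, 0.10 and 0.30 by number.

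Other genes shared this split. The 3 genes whose log2 intensity was most like DDIT4 over the 24 arrays were P4HA1, a collagen prolyl hydroxylase (Pearson r = 0.948), ANKRD37, a small hypoxia-induced gene (r = 0.941), and ENO2, an enolase of glycolysis (r = 0.915). P4HA1 was at 9.60 to 9.87 in replicate 3 and at 8.62 to 9.29 in the others, and ANKRD37 at 8.22 to 8.88 against 6.27 to 7.29. These 3 were picked for likeness to DDIT4 on these same arrays. Their sharing of the split follows largely from that choice and is a description. Of 13 tested genes of a hypoxia and glucocorticoid list, 9 had over 50% of their within-group variance by replicate number, against 23.3% of all genes. BNIP3, a hypoxia-induced mitophagy receptor, had 97.3%. Of the 13, 9 had a higher mean in replicate 3 than in replicate 1, among them BNIP3 (difference 1.26) and VEGFA (0.48). EPAS1 (-0.74, 80.7% by replicate number) and HIF1A (-0.41, 82.5%) were among those that were lower. The share of all genes with a higher mean in replicate 3 was not counted, so the 9 of 13 show no direction for the list. What differed between the replicate numbers is not given in the labels, and its part in these values was not tested.

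**Figure D4:**
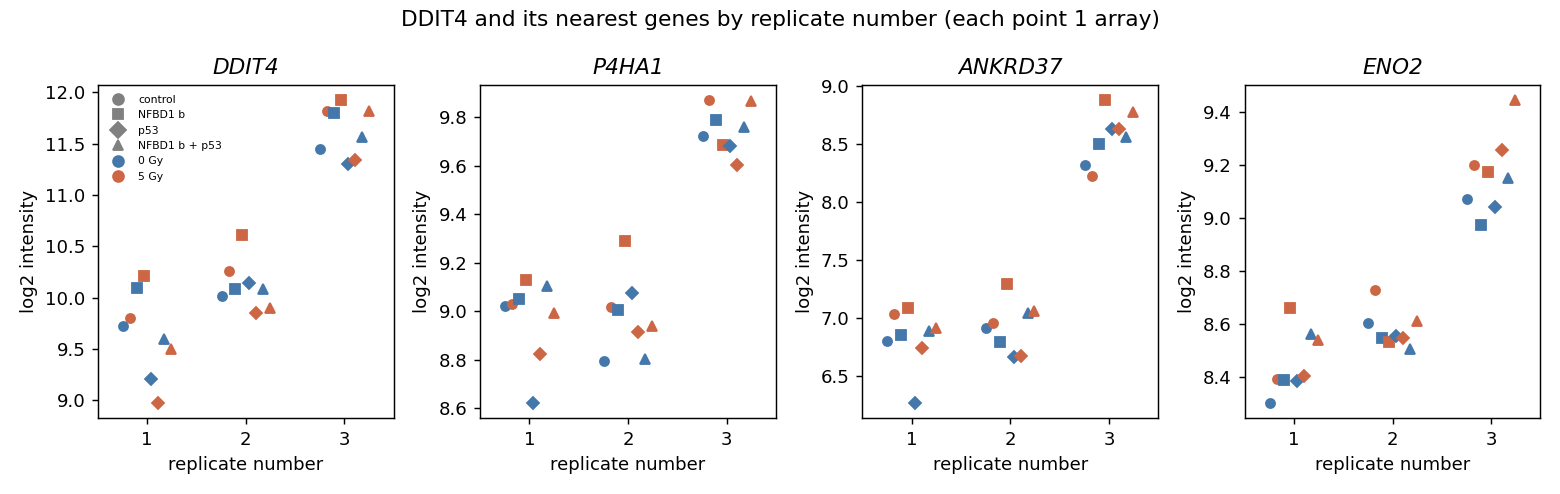
Log2 intensity (y axis) of DDIT4 and of its 3 nearest genes against replicate number on the 24 arrays of the first experiment; shape gives the shRNA and colour the dose. In each panel the 8 replicate 3 arrays lie above the other 16, for DDIT4 at 11.30 to 11.92. The 3 genes were picked for likeness to DDIT4 on these arrays, so their split is a description.

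In the second experiment, which was normalized and tested apart, hairpin NFBD1a changed 6 of the 7 members against its own control. Called higher were SESN1, SESN2, TIGAR and TRIAP1, 4 members, against 13.6% of all genes; called lower were DDIT4 and SESN3, 2 members, against 12.6% of all genes. SESN1 was at 6.60, 6.54 and 6.66 with the control and at 7.28, 7.18 and 7.14 with NFBD1a, a 1.51-fold rise (log2 change 0.60, SE 0.0694, adjusted p = 0.000315). TIGAR was at 9.29, 9.15 and 9.18, then at 9.65, 9.73 and 9.74, a 1.42-fold rise (adjusted p = 0.000786). SESN2 was at 5.14, 5.03 and 4.96, then at 5.48, 5.33 and 5.40, a 1.29-fold rise (log2 change 0.36, adjusted p = 0.0067; 0.12 with the authors' processed values, adjusted p = 0.0521). The groups did not overlap for these 3 genes. With the authors' processed values the SESN1 change was 0.35 and that of SESN3, given next, -0.22, both called. The rise was not limited to members. CDKN1A, the standard p53 target above, had a mean of 12.50 (SD 0.08) with NFBD1a against 11.66 (SD 0.02) in its control. Its arrays did not overlap either. Whether its change and those of the members are linked was not tested.

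TRIAP1 was at 8.80, 8.70 and 8.72 with the control and at 8.95, 9.04 and 8.90 with NFBD1a. That 1.17-fold rise (log2 change 0.23, adjusted p = 0.0373) was lost without any of 5 of the 6 arrays, all but control replicate 1, with adjusted p from 0.0514 to 0.116. DDIT4 was at 9.53, 9.59 and 9.74 with the control and at 8.29, 8.14 and 8.39 with NFBD1a, 2.54-fold lower (log2 change -1.34, SE 0.087, adjusted p = 1.55e-05). In the first experiment the mean of DDIT4 differed by more than this, by 1.99, between replicates 3 and 1. Whether a like difference between cultures entered the NFBD1a change was not tested. SESN3 was at 6.50, 6.43 and 6.73, then at 6.04, 6.12 and 6.17, 1.36-fold lower (log2 change -0.45, adjusted p = 0.00534). PANK1 was at 7.00, 6.57 and 6.82, then at 6.69, 6.84 and 6.79 on its brightest probe, a change of -0.03 (95% interval -0.26 to 0.21).

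Side by side with unirradiated hairpin b against its control, the changes with NFBD1a were 0.60 and with hairpin b 0.12 for SESN1, 0.50 and -0.05 for TIGAR, and -1.34 and 0.26 for DDIT4 (95% interval with hairpin b -1.29 to 1.81). For PANK1 they were -0.03 with NFBD1a and -0.36 with hairpin b. CDKN1A, higher with NFBD1a, had a mean of 11.69 in unirradiated hairpin b cells and of 11.69 in their control. The settings also differed in MDC1 itself. Its mean was 9.01 with the control and 7.59 with hairpin b at 0 Gy, and 8.65 and 6.24 in the NFBD1a experiment. Of all genes, 55 of 12419 were called with hairpin b at 0 Gy and 2896 of 11040 with NFBD1a. The hairpins were run in separate experiments with separate controls, and the difference between them was not tested.

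**Figure D5:**
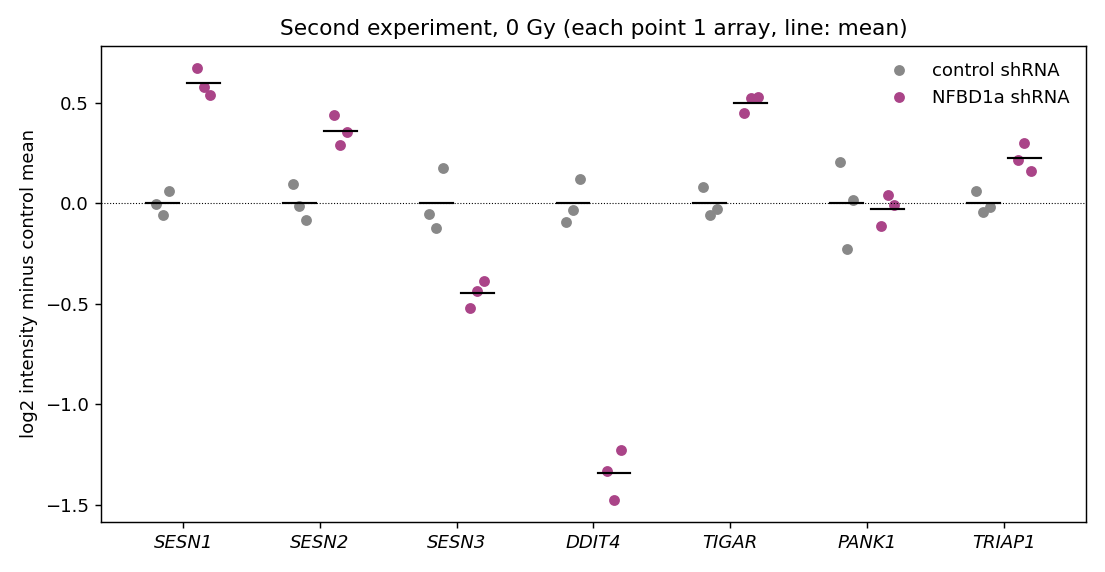
Log2 intensity of each member on the 6 arrays of the second experiment, with the mean of the 3 control arrays subtracted (y axis); lines are group means. With NFBD1a, DDIT4 lies 1.34 below the control mean and SESN1 0.60 above it, with no overlap of arrays, and PANK1 overlaps.

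Over the 24 arrays of the first experiment the members fell into like and unlike patterns. SESN1, SESN2, TIGAR and TRIAP1 correlated with one another at Pearson r between 0.826 and 0.941, and SESN3 with DDIT4 at 0.769, while PANK1 was at 0.609 with SESN1 and 0.207 with SESN2. These correlations share the treatments and the replicate numbers of 24 arrays and are descriptions. The genes most like SESN1 were CDKN1A (r = 0.977), the thrombin receptor family gene F2RL2 (0.967) and GDF15, a stress-induced cytokine (0.951). For TIGAR they were PPM1D (0.955), GDF15 (0.944) and TRIAP1 (0.941), and TRIAP1 was nearest to TIGAR, PPM1D (0.917) and SESN2 (0.903). SESN2 was nearest to TENT5A (0.933), a noncanonical poly(A) polymerase, then to TRIAP1 and TIGAR (0.877). PANK1 was nearest to RAB1A (0.864), a GTPase of transport from the endoplasmic reticulum to the Golgi, ILRUN-AS1 (0.805) and CPT2 (0.803), a mitochondrial fatty acid transferase. SESN3 was nearest to TSHZ3 (0.852), KLF9 (0.851), a glucocorticoid-induced factor, and SMARCA1 (0.829), a chromatin remodeller.

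A list of other p53 targets of metabolism and redox balance had 14 tested genes. TP53INP1, a p53-induced autophagy and stress protein, and RRM2B, the p53-induced ribonucleotide reductase subunit, rose after irradiation with the control shRNA (log2 changes 1.48 and 0.77, adjusted p = 0.00733 and 0.0357), against 0.209% of all genes. TP53INP1 rose with hairpin b (1.38, adjusted p = 0.0123) and also with the p53 shRNA (1.44, adjusted p = 0.0175), against 0.234% and 0.0242% of all genes. The list's median change with the control shRNA was 0.13, against 0.0016 over all genes. At 5 Gy the p53 shRNA lowered 3 of the 14, TP53INP1 (log2 change -1.29), RRM2B (-1.25) and ACAD11 (-0.70), a mitochondrial acyl-CoA dehydrogenase, with adjusted p from 0.000456 to 0.0277, against 0.604% of all genes. In cells with hairpin b it lowered the same 3 (-1.51, -0.96 and -0.61, adjusted p from 0.0086 to 0.0177), against 0.362% of all genes. At 0 Gy it lowered RRM2B (-0.79) and ACAD11 (-0.62) in cells without hairpin b, against 0.322% of all genes. In cells with hairpin b it lowered 0 of the 14, against 0.153% of all genes, and 522 of all genes had an unadjusted p under 0.05. With NFBD1a, where 13.6% of all genes rose and 12.6% fell, 5 of 13 rose, among them RRM2B (0.85), FUCA1 (0.80), a lysosomal fucosidase, GPX1 (0.41), a glutathione peroxidase, and ACAD11 (0.38), and 2 fell.

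Lists of genes from the pathways around the members were also counted in the first experiment. In the 4 irradiation comparisons and the 4 p53 shRNA comparisons, 0 genes were called on the lists of mTORC1 and its GATOR and RAG regulators (24 tested), AMPK, autophagy and KEAP1-NRF2 partners (20), glycolysis and the pentose phosphate pathway (24), coenzyme A synthesis (9), the PRELI family and cardiolipin synthesis (13), the FOXO and AKT axis (11) and hypoxia and glucocorticoid genes (13). Of all 12419 genes, 19 to 94 were called in these comparisons, so 0 calls on lists of this size says little about the pathways. Counts of all genes at an unadjusted p under 0.05 in these comparisons were 373 to 1393. On the list of ATF4 and integrated stress response genes (23 tested), ATF3, a stress-induced transcription factor, rose after irradiation in control cells (1.34) and in hairpin b cells (1.25). At 5 Gy ATF3 was lower with the p53 shRNA, by a log2 change of -1.21 without hairpin b (adjusted p = 0.000518) and of -0.85 with it (adjusted p = 0.02). With hairpin b, INHBE, an inhibin subunit gene of the ATF4 response, rose (1.14 to 1.53) and EIF2S1, the translation factor eIF2 alpha, fell (log2 changes from -1.36 to -0.94) in all 4 comparisons. In the average over those 4 comparisons 10 of the 23 rose and 2 fell, with a median of 0.20, against 1.8% of all genes risen and 3.87% fallen. Among them were INHBE (1.36), EIF2S1 (-1.13), ATF3 (0.45) and VLDLR (0.44).

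With NFBD1a 2 of the same 23 rose and 10 fell, with a median of -0.25, against 13.6% of all genes risen and 12.6% fallen. INHBE (log2 change -1.41), NUPR1, a stress-induced chromatin protein (-1.40), and PHGDH, an enzyme of serine synthesis (-0.56), were lower, and PPP1R15A, the eIF2 alpha phosphatase subunit GADD34, was higher (0.61). SESN2 was called higher both in the hairpin b average and with NFBD1a, and its relation to the ATF4 list was not tested. On the glycolysis and pentose phosphate list 5 of 24 rose with NFBD1a and 0 fell, against the same shares of all genes; the 5 included the glucose transporter SLC2A3 (1.07), the hexokinases HK2 (0.60) and HK1 (0.31), and PFKFB3 (0.55), a kinase that makes fructose-2,6-bisphosphate. On the hypoxia and glucocorticoid list 1 of 12 rose and 5 fell with NFBD1a, again against 13.6% and 12.6% of all genes. EPAS1, a hypoxia-inducible factor, rose (0.58), and FKBP5 (-0.58), NDRG1 (-0.44), ADM (-0.32), ANKRD37 (-0.32) and VEGFA (-0.29) fell. Of 8 tested genes of coenzyme A synthesis, 0 were called with NFBD1a, where 4184 of all genes had an unadjusted p under 0.05.

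In single hairpin b comparisons, FOXO4, a forkhead factor of the AKT axis, was the 1 gene of the 9 lists called outside the ATF4 list. Its log2 change was -0.84 against the control shRNA at 5 Gy (adjusted p = 0.0223). In the hairpin b average, where 1.8% of all genes rose and 3.87% fell, 2 of 24 mTORC1 genes rose, RRAGB (0.24) and SEH1L (0.23), parts of the RAG and GATOR complexes. In that average PRKAB2, an AMPK subunit, fell (log2 change -0.26), as did SLC2A3 (-0.45) and NDRG1 (-0.36), while RPIA (0.23), a pentose phosphate isomerase, TSC22D3 (0.52), a glucocorticoid-induced gene, PRELID3A (0.34) and TAMM41 (0.26), both of mitochondrial lipid handling, and SAT1 (0.27), a p53-induced polyamine enzyme, rose. With NFBD1a the counts below stand beside 13.6% of all genes risen and 12.6% fallen. Of 23 mTORC1 genes 3 rose and 1 fell, among them RRAGD (0.48) and RPS6KB1 (log2 change -0.43), which encodes S6 kinase. Of 20 AMPK, autophagy and KEAP1-NRF2 genes, 3 rose, among them HMOX1 (0.88), heme oxygenase, and 2 fell, among them NQO1 (log2 change -0.52), a quinone reductase. Of 9 FOXO and AKT genes, PINK1 (0.43) and CITED2 (0.27) rose, and of 13 PRELI and cardiolipin genes PRELID3A fell (log2 change -0.37).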

How the data were processed

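Members, lists and tests were chosen with earlier results of these data known. The authors deposited probe intensity (mean bead signal, neither background-corrected nor normalized, per the file headers and the values), with a detection p-value and a number of beads for each probe and array, per the file headers. They also deposited a matrix of processed log2 values, made in a way not given in the sources used here; it ranks each array's probes as the signal does (Spearman 1), gives every array nearly identical sorted values (within 0.00168), shares the median 6.951, is not centred, and runs in the same direction. The deposited table's other 30 columns were not used. The p53 transcript is not analysed here.

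Of 48802 probes, 27577 had 1 gene symbol, 13 several and 21212 none listed; only the first were named, with current symbols from RefSeq (GRCh38.p14, 27540 matched). Intensities were processed with limma's neqc (limma 3.58.1, R 4.3.3, offset 16) in each experiment. Probes with a detection p under 0.01 on at least 3 arrays were kept (21568 and 17975), and a gene was read from its brightest kept probe. limma's lmFit and eBayes fitted group means over the 24 arrays (16 residual degrees of freedom) and the 6 arrays (4), for 17 comparisons and 1 average added later; calls are at a Benjamini-Hochberg adjusted p under 0.05 over all genes. In a test on simulated data for irradiation with control shRNA over 12419 genes, 99 of 100 genes changed by 2 on the log2 scale and 85 of 100 changed by 1 were called.

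Named genes are the members, MDC1, CDKN1A, up to 4 called genes of each of 9 lists per comparison, by size of change, and the 3 genes nearest each member by Pearson r. HIF1A, VEGFA, BNIP3 and EPAS1 in the first experiment, ANKRD37 and VEGFA with NFBD1a, and PPM1D were named after their values were seen. Arrays of the same number deviated together: the correlation of deviations from group means was over 0.1 in 11 of 12 pairs of 1 shRNA at 0 and 5 Gy (0.0915 to 0.626), in 29 of 32 other pairs on a chip and in 35 of 40 on different chips. By that check the numbers pair the groups of each NFBD1 shRNA b comparison, of the irradiation comparisons other than with control shRNA, and of the p53 shRNA comparisons in cells with hairpin b; in the second experiment (0 of 3) they do not. The main fit did not use this pairing, and fits with the replicate number as a block are given as an alternative. Chips were taken from the array labels.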

Additional observations from a re-analysis of the deposited data

Results flagged for a closer look

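The response of SESN1 to 5 Gy differed between cells with and without the p53 shRNA by a test of the difference itself: averaged over NFBD1 status, the log2 change was smaller with the p53 shRNA, with an interaction of -0.67 (limma adjusted p = 0.018, 24 arrays). The irradiated minus unirradiated difference was 1.13 to 1.55 in the 6 array pairs without the p53 shRNA and 0.32 to 0.96 in the 6 with it. The call was lost when any of 9 of the 24 arrays was left out, with adjusted p from 0.0529 to 0.0624.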

How the results depend on the processing

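The number of members called changed as follows, with the cause not tested unless said. With only the arrays compared in the fit, which leaves fewer arrays to estimate the spread, the counts were 1 for irradiation with control shRNA and 1 with NFBD1 shRNA b (4 each otherwise), 0 for irradiation with p53 shRNA, 0 for the p53 shRNA at 0 Gy in both settings (1 otherwise), 1 for the p53 shRNA in irradiated hairpin b cells (5 otherwise) and 0 for hairpin b in irradiated p53-depleted cells (1 otherwise). With the chip as a block, 1 was called for irradiation with both shRNAs, 2 for hairpin b in p53-depleted cells at 0 Gy and 2 at 5 Gy, 1 for hairpin b at 5 Gy and 3 in the averaged p53 interaction. With the replicate block the counts were 2 and 2 for hairpin b in p53-depleted cells at 0 and 5 Gy and 4 in the averaged p53 interaction, where the numbers do not pair all groups; no other member count moved by over 1.5 times. The block for shRNA and replicate pair, chosen after seeing the data, gave 2 in that interaction. The authors' values gave 3 there, 1 in the single-shRNA p53 interaction and 1 for hairpin b at 5 Gy. Without background correction the counts were 3 in the averaged interaction and 1 for hairpin b in p53-depleted cells at 0 Gy. Without the filter they were 2 and 1 there, and 1 for irradiation with both shRNAs. The mean of all probes gave 0 for hairpin b in irradiated p53-depleted cells. Leaving out 1 array at a time gave 2 to 4 for irradiation with control shRNA (2 without irradiated control replicate 1), 0 to 1 for hairpin b in p53-depleted cells at each dose, 2 to 5 for the p53 shRNA in irradiated hairpin b cells and 0 to 3 in the averaged p53 interaction.

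Over all settings, 2328 member values kept their direction or stayed uncalled on the same side of the threshold, 118 of them with a changed sign while uncalled; 48 lost a call, 32 gained one and 63 within-chip values moved by over 1 SD. No called value changed sign. With the replicate block the TRIAP1 change with NFBD1a was not called (adjusted p = 0.0678). Sizes depend on the processing: with the authors' values, called changes of SESN1, SESN2, SESN3 and PANK1 were smaller by over 1.5 times in some comparisons, down to 0.31 from 0.90 for SESN2 after irradiation with control shRNA. Signal over background limits SESN2, whose raw intensity, 46.3 to 147, was the lowest among the probes read.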
